A study of Mus musculus with 18 samples.

Results

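The response of wild-type (WT) mouse follicular B cells to CD40L was read from 6 of the 18 RNA-seq libraries of the series: 3 of follicular B cells taken directly from the mouse (ex vivo, untreated) and 3 of follicular B cells cultured with CD40L. The libraries were chosen by their labels alone. All 6 came from C57BL/6 mice labelled wildtype, which the study describes as Sh3gl1+/+ littermates of the Sh3gl1-/- mice, with 3 mice per genotype. The other 12 libraries, of Sh3gl1-/- cells and of transitional B cells, are used here only where said. The labels give 14 h for the culture, whereas the methods state overnight and the legends of the figures a longer time than the labels. The follicular cells were sorted by flow cytometry before RNA was taken or culture began. No library of cells cultured without CD40L was analysed here, so the effect of CD40L and the effect of leaving the spleen for culture cannot be told apart, and "after CD40L" below means after that culture.

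CD40 is a receptor of the TNF receptor family on B cells, and its ligand CD40L is carried by activated helper T cells. Trimers of the ligand recruit TRAF adaptor proteins to the tail of CD40, which release NF-kB by a fast route, through loss of the inhibitor IkBa, and a slow route, in which the kinase NIK drives the processing of p100 to p52 and its pairing with RelB. In B cells this signal is known for survival, growth, division, display of molecules that engage T cells, and entry into the germinal centre.

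The libraries held between 12894080 and 15501865 counts ex vivo and between 15246554 and 18366011 after CD40L. Values are given in CPM (counts per 1000000 of the TMM-scaled library size), in the order of replicates 1, 2 and 3, and 3 counts equal between 0.18 and 0.225 CPM, a floor that covers counting error only. Comparisons between genes use TPM, which is also scaled to transcript length. A gene is said to rise or fall where edgeR's quasi-likelihood test gave an adjusted p under 0.05 over all 14460 genes tested. RNA per cell was not measured, and in such bulk libraries fewer cells of a type and less RNA per cell cannot be told apart. CD40L replicate 3 stood apart from the other 2 CD40L libraries most in genes of cell division, where it was the highest of the 3 for 45 of 48 DNA replication genes and 41 of 43 mitosis genes. It was also the highest for 49 of 61 ribosome biogenesis, 34 of 46 proteasome, 23 of 31 nucleotide synthesis, 23 of 33 glycolysis, 15 of 20 cytosolic chaperone and 33 of 42 interferon-induced genes, while CD40L replicate 1 was the highest for 11 of 13 mitochondrially encoded genes. Values without a library are given for some of the results that leaving it out changes, and not for every library that changes them.

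The label of the culture was checked with 3 genes that mark the CD40 response. Ccl22, a chemokine that draws T cells (ENSMUSG00000031779, GRCm38 chromosome 8 from 94745590 to 94751699), had 0.644, 1.18 and 0.225 CPM ex vivo and 166, 163 and 392 CPM after CD40L. Traf1, a TRAF adaptor (ENSMUSG00000026875, chromosome 2 from 34941750 to 34961772), had 32.3, 46.3 and 31.5 CPM against 521, 511 and 602 CPM. Fas, a death receptor (ENSMUSG00000024778, chromosome 19 from 34290666 to 34327772), had 6.44, 8.04 and 12.7 CPM against 242, 224 and 286 CPM. All 3 CD40L libraries lay above all 3 ex vivo libraries for each gene. The B cell gene Ms4a1 (CD20) was detected at between 2430 and 2703 CPM in all 6 libraries and was not called, although 6 of the 8 B-cell markers fell and their sum went from between 12753 and 13365 CPM to between 9327 and 9732 CPM.

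The response reached 49.3% of the genes tested: 7126 genes changed, of which 3414 (23.6%) were higher and 3712 (25.7%) lower after CD40L. The groups did not overlap for 6832 of the called genes, a separation that being called already favours. A lack of overlap given here for a called gene describes it and is no further support. The share without overlap among all tested genes is not given here. The falls reached further than the rises, with 501 genes lower and 195 higher by at least 3 on the log2 scale. Genes that rose held between 37.0% and 38.1% of all TPM ex vivo and between 57.1% and 61.2% after CD40L. Those that fell went from between 35.9% and 36.5% to between 16.6% and 19.8%. Both sets were called in these same libraries, so the direction of their shifts was a condition of the choice and only the size is described. The split depended on the scale and method. On log2(TPM + 1) the median of all genes was lower (-0.18, against -0.08 with TMM), and limma called 2504 genes higher and 4602 lower. With upper-quartile scaling 3255 were higher and 3823 lower. With median-ratio scaling 3586 were higher and 3515 lower, and with DESeq2 3717 and 3642. Each count of list members below is to be read against the 23.6% and 25.7% of all genes.

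**Figure D1:**
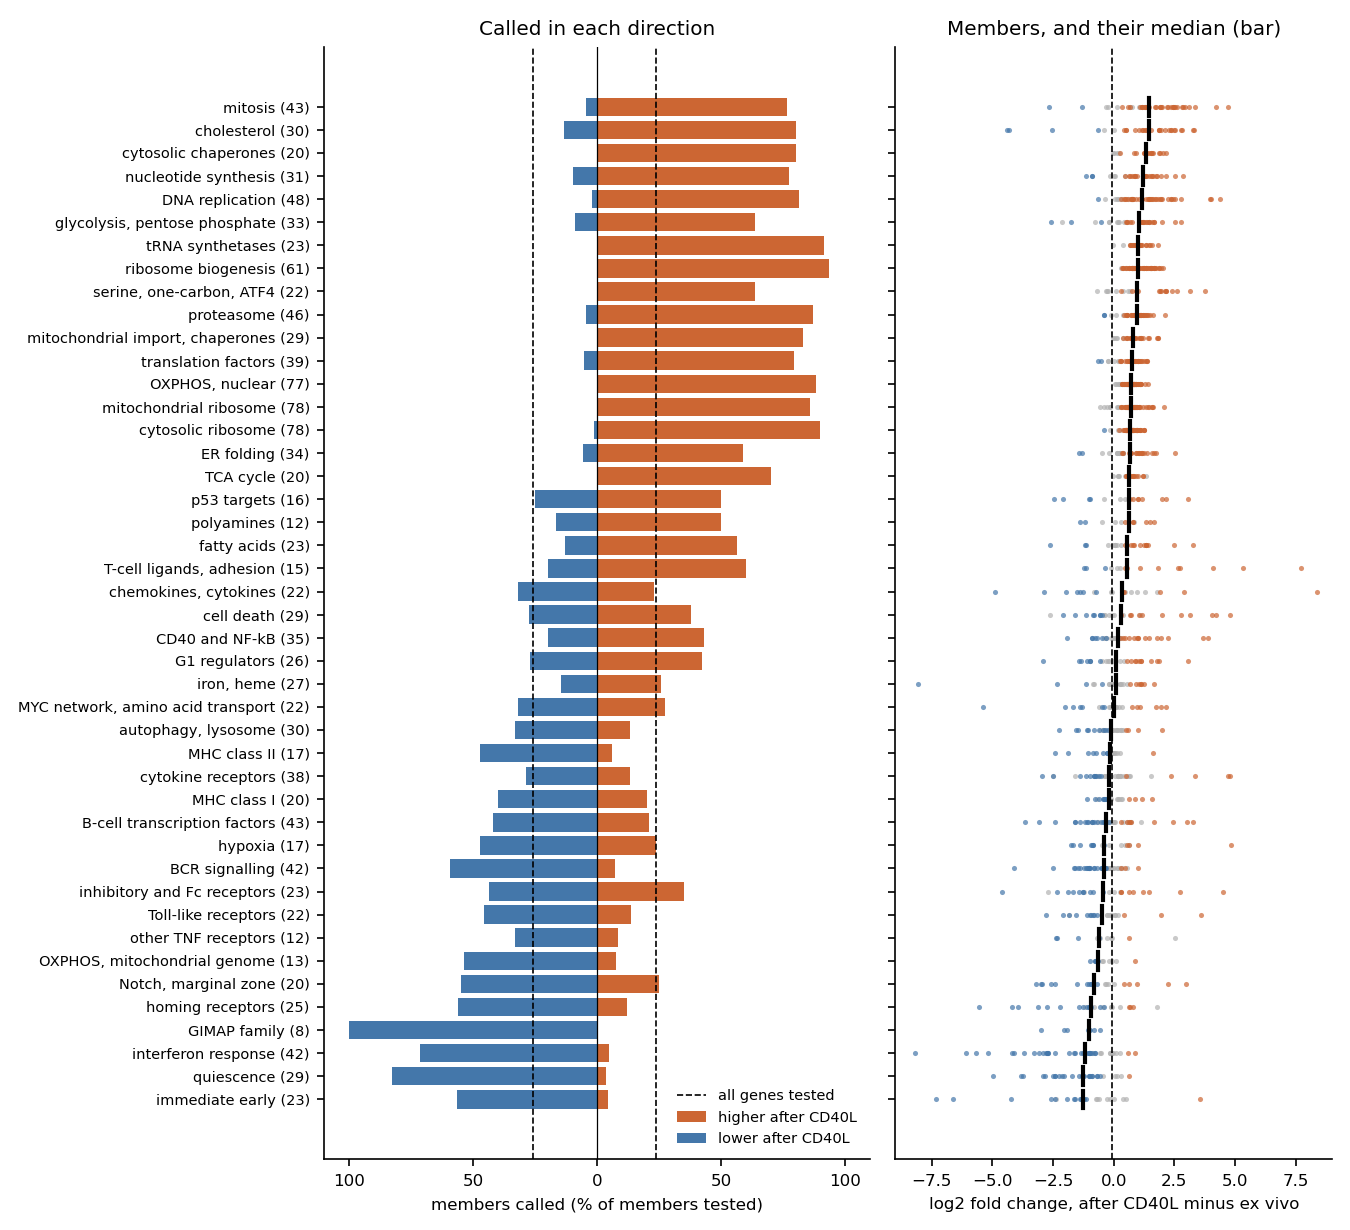
Left, the percentage of tested members called higher or lower after CD40L for 44 gene lists, with the number tested in brackets and dashed lines at the percentages for all genes tested. Right, the log2 fold change (CD40L against ex vivo) of each member, with a bar at the median. Lists of ribosome production, chaperones, mitochondria and division lie to the right, and those of quiescence, immediate early genes, interferon and homing to the left.

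Promoter sequences are shown for the NF-kB and sterol genes because members of both pathways rose and each pathway has a known DNA element. Windows of 250 bases before to 50 bases after each start came from RefSeq on GRCm38.p6, and 9615 of the 14460 tested genes matched by symbol and chromosome. The NF-kB element was searched as GGNNTTTCC on both strands, and the stretches below show each match in capitals. None of the motifs searched contains another.
Nfkb2 first start, chr19:46304687-46304736, plus strand: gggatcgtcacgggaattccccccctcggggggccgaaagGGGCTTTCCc
Nfkb2 second start, chr19:46305666-46305714, plus strand: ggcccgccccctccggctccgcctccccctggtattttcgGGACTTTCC
Nfkbia, chr12:55492648-55492865, minus strand: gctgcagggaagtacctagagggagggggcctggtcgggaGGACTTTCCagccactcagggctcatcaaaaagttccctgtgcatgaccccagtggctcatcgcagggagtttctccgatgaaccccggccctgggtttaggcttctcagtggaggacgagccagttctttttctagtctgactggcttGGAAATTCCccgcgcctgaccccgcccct
Hmgcs1, chr13:119690174-119690262, plus strand, with the sterol element in capitals: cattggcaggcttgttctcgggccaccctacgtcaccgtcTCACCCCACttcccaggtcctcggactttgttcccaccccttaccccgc

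The NF-kB letters began 10 bases before the first start of Nfkb2 and 11 bases after the second, and 178 and 29 bases before the start of Nfkbia, where the nearer match was on the opposite strand. At least 1 window held them for 10 of 28 NF-kB pathway genes with a promoter (35.7%), against 7.44% of all tested genes. The share was 7.65% among genes that rose, 6.82% among genes that fell, and 13.7% (18 of 131) among genes higher by at least 3 on the log2 scale. Of the pathway genes, 5 of 12 that rose, 1 of 5 that fell and 4 of 11 that were not called held them. The windows of Ccl22, Traf1 and Fas held no match. The letters of the TATA box, TATAAA, were in 9.02% of all tested genes and in 18.6% (59 of 318) of those lower by at least 3. All of these are matches of letters, not measured binding.

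Of 35 genes of the CD40 and NF-kB pathway 15 rose and 7 fell, with a median log2 fold change of 0.17 against -0.08 for all genes. The summed level of the list was 3282, 3246 and 3168 CPM ex vivo and 4899, 5706 and 5529 CPM after CD40L. The receptor itself, Cd40, had 179, 173 and 159 CPM against 410, 383 and 477 CPM, a log2 fold change of 1.31 (SE 0.11, edgeR adjusted p = 3.8e-07). Traf1 rose by 3.89 (SE 0.17), while Traf5, another adaptor of CD40, went from 117, 104 and 112 CPM to 25.5, 34.6 and 27.6 CPM (log2 fold change -1.93, SE 0.14, edgeR adjusted p = 1.3e-07). Traf3, the adaptor that holds NIK in check, had 34.5 ± 5.92 CPM (SD, n = 3) and 35.9 ± 3.21 CPM (SD, n = 3) and was not called.

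Several inhibitors of NF-kB were among the members that rose. Tnfaip3 (A20), a deubiquitinase that damps the pathway, had 17.7, 23.3 and 15.2 CPM ex vivo and 179, 244 and 303 CPM after CD40L (log2 fold change 3.69, SE 0.23, edgeR adjusted p = 3.8e-08). Nfkbia, which encodes IkBa, had 276, 183 and 155 CPM against 638, 1050 and 722 CPM (1.97, SE 0.21, edgeR adjusted p = 4.2e-06). Nfkbie, which encodes IkBe, rose by 1.77 (SE 0.13). In none of these 3 genes did the groups overlap. Tnip2, an inhibitor that binds A20, instead fell by 0.91 (SE 0.16), and the IkB family gene Nfkbid (-0.32) and the deubiquitinase genes Cyld (0.03) and Otulin (0.25) were not called. Ikbke, a kinase related to the IKK family, also rose, from 7.80 ± 0.862 to 36.9 ± 5.95 CPM (SD, n = 3 each).

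Among the NF-kB subunits, those of the slow route rose most. Nfkb2 (p100) had 43.6, 34.6 and 28.2 CPM against 120, 92.3 and 78.8 CPM (log2 fold change 1.45, SE 0.18, edgeR adjusted p = 2.0e-05), and Relb rose by 1.01 (SE 0.18, edgeR adjusted p = 3.8e-04). Map3k14, which encodes the kinase NIK, fell from 27.8, 38.2 and 33.8 CPM to 18.2, 20.5 and 15.3 CPM (-0.89, SE 0.20, edgeR adjusted p = 0.0023). Rela had 77.1 ± 6.12 and 75.7 ± 4.15 CPM (SD, n = 3 each) and was not called. Nfkb1 (0.25, edgeR adjusted p = 0.041) and Rel (-0.31, edgeR adjusted p = 0.022) lay close to the threshold, and both calls were fragile: Nfkb1 was not called with the replicate number as a block (0.24, edgeR adjusted p = 0.061), nor Rel without CD40L replicate 3 (-0.22, edgeR adjusted p = 0.11). In the 6 Sh3gl1-/- libraries, which came from other mice, Rel had a log2 fold change of 0.18, while Traf1 (3.56), Tnfaip3 (3.32), Nfkb2 (1.41) and Map3k14 (-0.76) kept the direction of the WT cells.

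**Figure D2:**
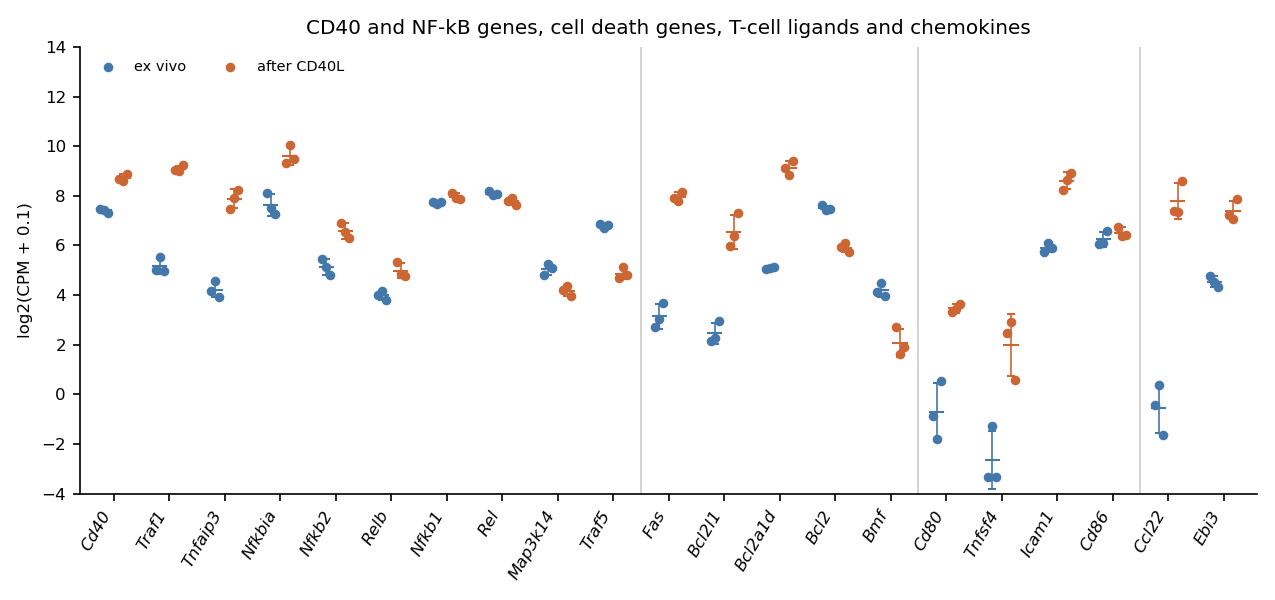
Levels, as log2(CPM + 0.1), of genes of the CD40 and NF-kB pathway, cell survival, T-cell contact and secreted signals in each of the 3 ex vivo and 3 CD40L libraries (points), with mean and SD. The CD40L points of Traf1, Tnfaip3, Fas, Bcl2l1 and Ccl22 lie above all ex vivo points, and those of Traf5, Map3k14, Bcl2 and Bmf lie below.

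Genes of cell death changed in both directions, with 11 of 29 tested members higher and 8 lower (32 were listed; Bok, Bik and Hrk were too low to test). The survival genes of the BCL2 family moved in opposite directions. Bcl2l1, which encodes BCL-XL, had 4.38, 4.70 and 7.57 CPM ex vivo and 62.1, 82.6 and 159 CPM after CD40L (log2 fold change 4.20, SE 0.40, edgeR adjusted p = 1.6e-06). Bcl2a1d, an A1 gene, had 33.5, 33.6 and 35.2 CPM against 557, 463 and 673 CPM (4.05, SE 0.17, edgeR adjusted p = 9.6e-10), although reads of its near-identical copies may be divided between them. Bcl2 fell from 197, 171 and 175 CPM to 60.8, 67.5 and 52.5 CPM (-1.59, SE 0.12, edgeR adjusted p = 1.7e-07), and Mcl1 by 0.56 on the log2 scale (SE 0.15). Per transcript length, Bcl2l1 went from 3.25 to 48.7 TPM and Bcl2 from 48.0 to 13.4 TPM (means of 3), so their order changed.

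The genes that promote death also split. Fas rose by 4.80 on the log2 scale (SE 0.23, edgeR adjusted p = 2.7e-09) and Bid, which links death receptors to mitochondria, from 121, 124 and 135 CPM to 769, 776 and 1029 CPM. Bmf, a BH3-only protein of the intrinsic route, fell from 17.3, 22 and 15.7 CPM to 6.48, 2.94 and 3.60 CPM (-2.08, SE 0.26, edgeR adjusted p = 2.1e-05). Bcl2l11 (BIM) fell by 0.84 (SE 0.23, edgeR adjusted p = 0.0085), a call that was lost without ex vivo replicate 1 (-0.66, edgeR adjusted p = 0.051). Casp9, the initiator caspase of the intrinsic route, fell by 1.15 (SE 0.17).

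Molecules that engage T cells rose for 9 of 15 tested members and fell for 3, with a median log2 fold change of 0.53. Icam1, an adhesion ligand for LFA-1, had 52.9, 67.8 and 59.0 CPM against 303, 400 and 489 CPM (log2 fold change 2.73, SE 0.20, edgeR adjusted p = 1.7e-07). Cd83, a surface protein of activated B cells, was already abundant at 778, 727 and 625 CPM and reached 2178, 2648 and 2808 CPM. The ligand genes rose from near absence: Cd80 from 0.451, 0.186 and 1.35 CPM to 9.79, 10.7 and 12.5 CPM (4.08, SE 0.45, edgeR adjusted p = 6.2e-06; 5.08 without ex vivo replicate 3). Cd70, the ligand of CD27, had 0 counts in all 3 ex vivo libraries and 1.55, 1.5 and 2.28 CPM after CD40L, at least 7.91-fold higher by the floor of 3 counts per library. Tnfsf4 (OX40L) had 0, 0.309 and 0 CPM against 5.40, 7.45 and 1.38 CPM. After CD40L these ligands remained low beside Cd86, which had 66.0, 68.7 and 96.9 CPM ex vivo and 108, 83.3 and 85.6 CPM after, and was not called (0.26, SE 0.15, edgeR adjusted p = 0.17; 0.46 and adjusted p = 0.021 without ex vivo replicate 3). In TPM, Cd86 had a mean of 46.6 and Cd80 of 7.29 after CD40L. The 3 members that fell were Icosl (-0.37; not called without ex vivo replicate 2) and the PD-1 ligands Cd274 (-1.21) and Pdcd1lg2 (-1.14), and the groups did not overlap in any of them.

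Among secreted signals 5 of 22 tested members rose and 7 fell. Ccl22 had the highest log2 fold change of any member (8.40, SE 0.55, edgeR adjusted p = 4.8e-08; 9.07 without ex vivo replicate 2), and its sister ligand of CCR4, Ccl17, was too low to test. Ebi3, the shared subunit of IL-27 and IL-35, had 27.1, 22.7 and 20.2 CPM against 151, 133 and 231 CPM (2.88, SE 0.20, edgeR adjusted p = 7.8e-08). Il15 rose from 1.39 ± 0.251 to 5.20 ± 0.444 CPM (SD, n = 3 each), and Tnf by 0.42 (SE 0.13), the latter not called without ex vivo replicate 1 (0.37, edgeR adjusted p = 0.074). Ccl3, Ccl4 and Lta were not called. Those that fell included Ccl6 (13.6, 9.41 and 15.8 CPM to 0.473, 0.261 and 0.539 CPM) and Ccl5 (26.7, 23.5 and 43.3 CPM to 5.88, 9.02 and 8.99 CPM), which are chemokines that myeloid cells, T cells and NK cells also make.

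Markers of other cells fell in parallel. The summed level of 8 T-cell markers was between 68.8 and 89.7 CPM ex vivo and between 9.86 and 13.4 CPM after CD40L, and all 8 fell. All 6 NK-cell markers fell (26.5 to 68.7 CPM against 3.51 to 8.27 CPM), all 6 red-cell markers fell (1429 to 3845 CPM against 6.42 to 354 CPM), and 6 of 8 tested neutrophil markers fell (65.3 to 181 CPM against 9.77 to 40.3 CPM), with Ly6g at 0 counts in all 6 libraries. Of the 7 monocyte and macrophage markers, summing to between 125 and 161 CPM ex vivo and between 69.7 and 97.7 CPM after CD40L, 4 fell, among them Lyz2 (-4.08), and Adgre1 rose by 3.01. The 6 dendritic cell markers summed to between 13.3 and 17.2 CPM ex vivo and between 27.9 and 39.4 CPM after. Of these 1 rose (Zbtb46, by 2.25) and 3 fell, among them Itgax and Clec9a, which were at 0 counts in all 3 CD40L libraries. Flt3 (0.38) and Xcr1 (0.62) were not called. The part of these cells in the falls of Ccl5, Ccl6 and other genes below was not tested.

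**Figure D3:**
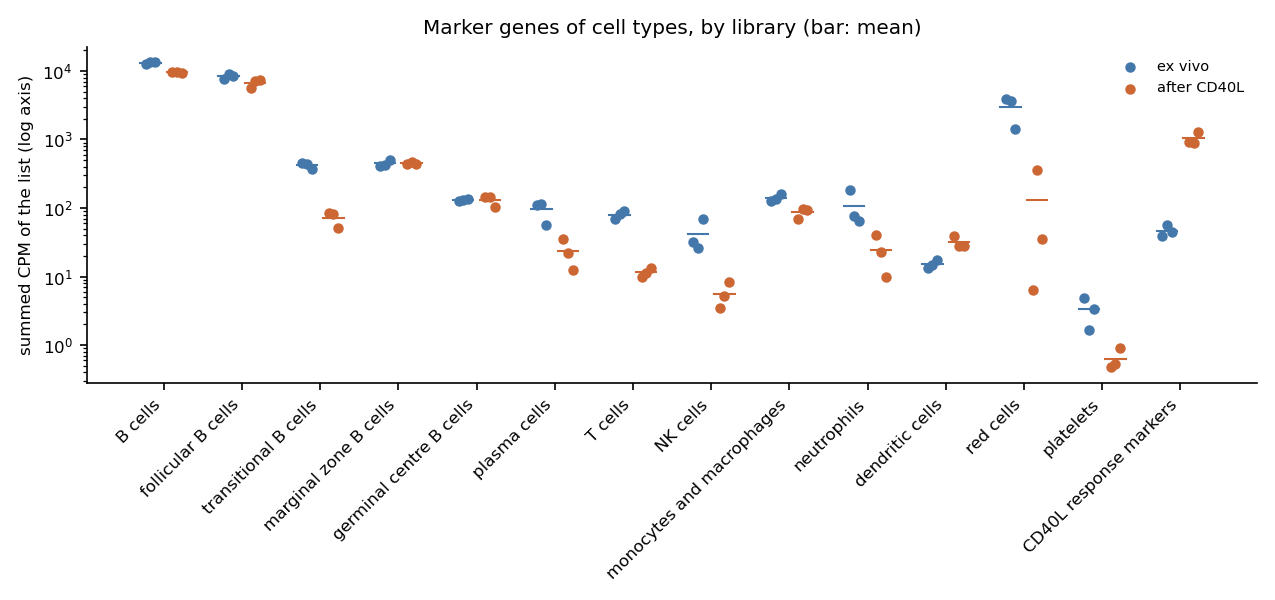
Summed CPM (log axis) of the markers of 13 cell types and of the 3 CD40L response markers in each of the 6 libraries. The T-cell, NK-cell and red-cell sums are lower in all 3 CD40L libraries than in any ex vivo library, and the CD40L response markers are higher.

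Receptors for cytokines and TNF ligands changed in a few members. Il1r2, the decoy receptor for interleukin-1, had 1.22, 0.866 and 0.225 CPM against 24.4, 19.3 and 22.4 CPM (log2 fold change 4.79, SE 0.42, edgeR adjusted p = 7.0e-07). Il2ra (CD25) had 3.61, 5.57 and 5.55 CPM against 45.9, 56.7 and 47.4 CPM (3.35, SE 0.25, edgeR adjusted p = 1.7e-07), and Il9r rose from 48.8 ± 3.88 to 250 ± 9.81 CPM (SD, n = 3 each). Socs2, a feedback inhibitor of cytokine signalling, rose by 4.72 (SE 0.49; 5.52 without ex vivo replicate 3). In all, 5 of 38 cytokine receptor and SOCS genes rose and 11 fell (7 fell without ex vivo replicate 2), Il4ra by 0.61 among them (not called without ex vivo replicate 2). Of 12 tested TNF receptor genes 4 fell and 1 rose, Tnfrsf22 by 0.62. That rise was not called without ex vivo replicate 2, ex vivo replicate 3 or CD40L replicate 3, nor with the replicate number as a block (0.60, edgeR adjusted p = 0.052). Cd27, a receptor of memory and plasma cell biology, fell from 11.3 ± 0.261 to 2.19 ± 0.312 CPM (SD, n = 3 each), while its ligand gene Cd70 rose. T-cell and NK-cell markers fell in the same libraries, and the part of those cells in the fall of Cd27 was not tested. The BAFF receptor gene Tnfrsf13c was not called (506 ± 52.0 and 472 ± 80.1 CPM), while Tnfrsf13b (TACI) fell by 0.62 (SE 0.14).

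Receptors that position B cells fell for 14 of 25 tested members and rose for 3, with a median log2 fold change of -0.95. S1pr1, the receptor that lets lymphocytes leave lymphoid organs, fell from 451, 382 and 361 CPM to 8.17, 11.0 and 6.41 CPM (-5.54, SE 0.21, edgeR adjusted p = 3.7e-10). Itgb7, an integrin chain for homing to the gut, fell from 52.5, 49.0 and 38.9 CPM to 4.39, 2.09 and 1.26 CPM. In both genes every ex vivo library was above every CD40L library, a separation that being called already favours.

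The receptors for places within the lymphoid organ behaved differently from each other. Ccr7, the receptor for the T-cell zone, fell from 319, 330 and 325 CPM to 142, 184 and 128 CPM (-1.10, SE 0.13, edgeR adjusted p = 9.1e-06). Gpr183 (EBI2), a receptor for the outer follicle, rose from 274, 291 and 304 CPM to 491, 492 and 532 CPM (0.80, SE 0.09, edgeR adjusted p = 6.5e-06), and Ccr6 and the LFA-1 chain Itgal rose by 0.63 and 0.66. Cxcr5, the receptor for the follicle, had 324, 351 and 405 CPM against 344, 442 and 527 CPM and was not called (0.28, SE 0.17, edgeR adjusted p = 0.18; 0.42 and adjusted p = 0.046 without CD40L replicate 1). Cxcr4, the receptor of the germinal centre dark zone, varied between 4.52 and 17.4 CPM ex vivo and between 1.11 and 11.1 CPM after. It was not called in the unblocked test (-1.19, edgeR adjusted p = 0.20), but it was with the replicate number as a block (-1.46, edgeR adjusted p = 0.026) and without CD40L replicate 1 (-2.38, edgeR adjusted p = 0.022).

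Factors linked to quiescence fell for 24 of 29 members, and 1 rose (Zfp36l1, 0.63). The list's summed level was 6360, 6359 and 6574 CPM ex vivo and 3176, 2979 and 2747 CPM after CD40L. Klf2, a factor that keeps lymphocytes resting and drives S1pr1, fell from 59.0, 52.5 and 41.2 CPM to 2.90, 0.980 and 1.02 CPM (-4.97, SE 0.44, edgeR adjusted p = 7.9e-07; -5.67 without CD40L replicate 1). Foxo1, which also acts on homing genes, fell from 149, 129 and 127 CPM to 54.7, 40.5 and 29.6 CPM. Txnip, an inhibitor of glucose uptake, fell from 205, 218 and 239 CPM to 49.8, 44.6 and 56.3 CPM (-2.14, SE 0.12, edgeR adjusted p = 1.1e-08). The Cdk inhibitor genes Cdkn1b (p27) and Cdkn2d (p19) fell by 1.42 and 2.92 on the log2 scale, and Pik3ip1, an inhibitor of PI3 kinase, by 2.82. All 8 GIMAP genes, small GTPases of lymphocyte survival, fell, Gimap7 from 193 ± 23.5 to 24.0 ± 4.31 CPM (SD, n = 3 each).

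Immediate early genes were lower, not higher, after the culture. Of 23 tested, 13 fell and 1 rose (0 without ex vivo replicate 1 or 3, 2 without ex vivo replicate 2 or CD40L replicate 1), with a median of -1.28. Fos had 13, 13.9 and 13.6 CPM ex vivo and 0.0675, 0.261 and 0.0599 CPM after CD40L (-6.63, SE 0.48, edgeR adjusted p = 1.3e-07; -7.55 without CD40L replicate 2). Fosb had 1.93, 1.24 and 0.900 CPM ex vivo and 0 counts in all 3 CD40L libraries, at least 6.70-fold lower. Egr1 and Nr4a1, read as signs of recent antigen receptor signalling, fell by 1.93 and 1.60.

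**Figure D4:**
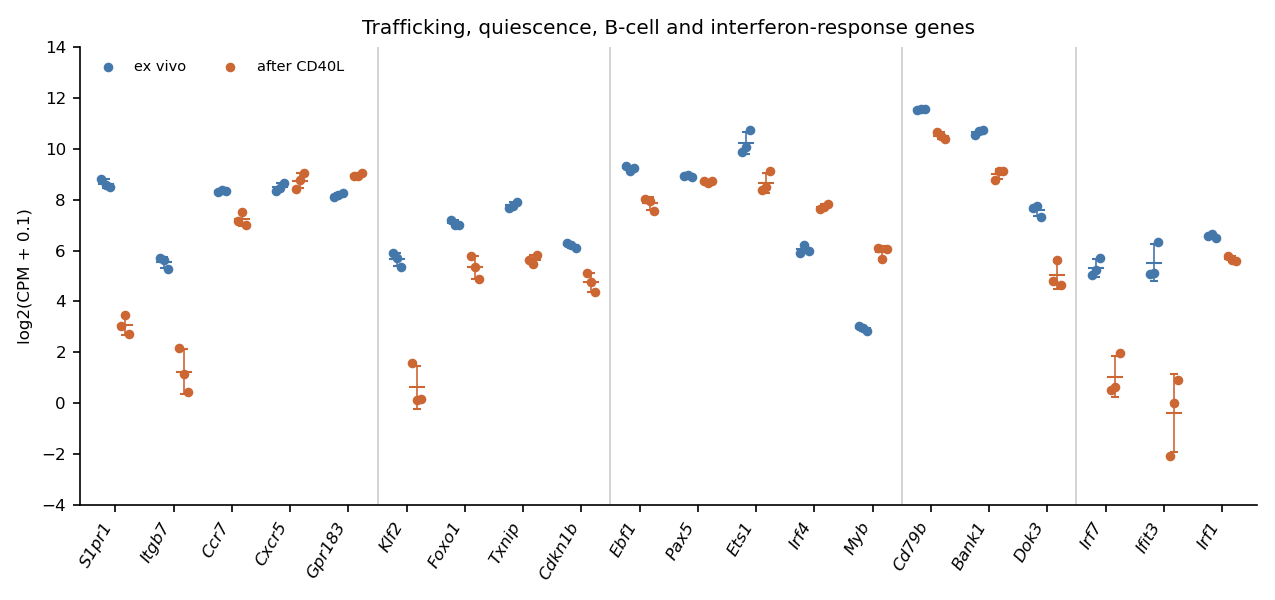
Levels, as log2(CPM + 0.1), of genes of trafficking, quiescence, B-cell identity, antigen receptor signalling and interferon response in each ex vivo and CD40L library (points), with mean and SD. S1pr1, Itgb7, Klf2 and Ifit3 are lower in all CD40L libraries, Irf4, Myb and Gpr183 are higher, and the groups overlap for Cxcr5.

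Transcription factors of B-cell identity fell for 18 of 43 tested members and rose for 9. Ebf1, a founding factor of the lineage, fell from 646, 561 and 605 CPM to 261, 248 and 190 CPM (-1.37, SE 0.14, edgeR adjusted p = 2.1e-06), whereas its partner Pax5 went from 486, 497 and 469 CPM to 425, 407 and 426 CPM (-0.21, edgeR adjusted p = 0.034; 0.08 with the replicate number as a block). Ets1, which restrains plasma cell formation, fell from 944, 1069 and 1696 CPM to 331, 357 and 552 CPM. Hhex and Lmo2 fell by 3.10 and 2.43. Irf4, a factor of activated B cells and plasma cells, rose from 60.5, 75 and 63.8 CPM to 196, 210 and 229 CPM (1.67, SE 0.14, edgeR adjusted p = 5.5e-07). Myb, best known in progenitors, rose from 7.99, 7.73 and 7.05 CPM to 69.2, 51.0 and 66.1 CPM, and Mef2b, a germinal centre factor, from 3.74, 4.33 and 3.22 CPM to 24.4, 49.1 and 34.7 CPM.

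The factors Bcl6 and Prdm1, which mark end states, were not called. Bcl6, the master factor of the germinal centre, had 105, 101 and 123 CPM ex vivo and 117, 86.3 and 66.3 CPM after CD40L (-0.29, SE 0.19, edgeR adjusted p = 0.22; -0.53 and adjusted p = 0.019 without CD40L replicate 1). Prdm1 (Blimp-1), the plasma cell factor, stayed at 1.42 CPM or lower (1.13, SE 0.55, edgeR adjusted p = 0.10; 1.71 and adjusted p = 0.049 without ex vivo replicate 2). Of 7 germinal centre markers 1 rose and 2 fell, Rgs13 by 1.83 and Nuggc from at most 2.29 CPM to at most 0.392 CPM, and of 5 tested plasma cell markers 3 fell, Jchain from 80.6 ± 31.3 to 19.6 ± 11.0 CPM (SD, n = 3 each).

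Genes of the B-cell receptor and its proximal signalling fell for 25 of 42 members and rose for 3. Cd79b, a signalling chain of the receptor, had 2982, 3001 and 3043 CPM against 1608, 1437 and 1342 CPM (-1.04, SE 0.08, edgeR adjusted p = 1.9e-07), and Cd79a fell by 0.47. The adaptor Bank1 fell from 1505, 1662 and 1699 CPM to 441, 554 and 558 CPM, and Dok3, a negative adaptor, from 203, 215 and 160 CPM to 28.1, 48.9 and 24.9 CPM. Cr2 (CD21), the complement coreceptor, fell by 1.09. Rasgrp3, which couples the receptor to Ras, rose from 308, 338 and 323 CPM to 577, 741 and 650 CPM (1.02, SE 0.11, edgeR adjusted p = 4.9e-06). Immunoglobulin genes together fell from between 6.80% and 7.26% of TPM to between 4.35% and 5.52%.

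Inhibitory and Fc receptors split, with 8 of 23 higher (5 on the log2(TPM + 1) scale) and 10 lower. Fcer2a (CD23), a low-affinity IgE receptor that CD40 is known to raise, went from 1315, 1664 and 1545 CPM to 3328, 4198 and 5032 CPM (1.47, SE 0.16, edgeR adjusted p = 6.6e-06). Lilrb4a rose from 5.35, 7.24 and 10.6 CPM to 154, 148 and 215 CPM (4.49, SE 0.35, edgeR adjusted p = 2.7e-07). It lies within the span of the predicted gene Gm49339, so reads may be divided between them. Cd22, an inhibitory lectin of B cells, fell by 0.99 (SE 0.21), and Ceacam1 by 2.33 (SE 0.12). Notch pathway and marginal zone genes fell for 11 of 20 tested and rose for 5. Notch2, the receptor of marginal zone fate, fell from 254, 222 and 230 CPM to 109, 73.9 and 67.7 CPM, its targets Dtx1 and Hes1 by 2.57 and 2.99 on the log2 scale, while the Notch target Asb2 rose by 2.98.

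Interferon-induced genes fell for 30 of 42 members and rose for 2 (1 without CD40L replicate 3 or without any of the 3 ex vivo libraries), with a median of -1.18. CD40L replicate 3 was the highest of the 3 CD40L libraries for 33 of the 42. Irf7, the factor that amplifies interferon production, fell from 32.5, 37.3 and 52.0 CPM to 1.35, 1.44 and 3.84 CPM (-4.18, SE 0.39, edgeR adjusted p = 1.2e-06; -4.84 without CD40L replicate 3). Ifit3 fell from 33.8, 34.8 and 81.5 CPM to 0.135, 0.915 and 1.80 CPM, and Rsad2 (viperin) from 8.51, 9.10 and 5.77 CPM to 0, 0.261 and 0.0599 CPM. Irf1, another regulator, fell by 0.90 (SE 0.10). Among Toll-like receptors, Tlr4 and Tlr7 fell by 1.86 and 1.55, Tlr9 was not called, and the TLR4 adaptor genes Ticam2 (3.70 ± 1.39 to 45.6 ± 14.4 CPM, SD, n = 3 each) and Ticam1 rose.

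Of 17 genes of antigen presentation by MHC class II 8 fell and 1 rose (2 without CD40L replicate 3), with larger falls in modulators than in the class II chains. Cd74, the invariant chain and one of the most abundant transcripts, had 51208, 52507 and 53276 CPM against 46700, 43327 and 40746 CPM (-0.26, SE 0.05, edgeR adjusted p = 5.0e-04). H2-Aa, a class II chain, was not called (-0.16, edgeR adjusted p = 0.057; -0.21 and adjusted p = 0.022 without ex vivo replicate 1). H2-Ob, which restrains peptide loading, fell from 1311, 1340 and 1372 CPM to 422, 404 and 277 CPM (-1.87, SE 0.13, edgeR adjusted p = 9.6e-08). March1, the ligase that removes class II and CD86 from the surface, fell from 340, 395 and 395 CPM to 68.0, 76.8 and 65.6 CPM (-2.43, SE 0.13, edgeR adjusted p = 5.9e-09). Ifi30, a lysosomal reductase for antigen processing, rose by 1.61. For class I, 8 of 20 members fell and 4 rose. The 8 became 3 without ex vivo replicate 1 and 5 without ex vivo replicate 2, and B2m and H2-K1 were not called.

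Genes of ribosome production rose almost throughout. Of 61 nucleolar factors 57 rose and 0 fell (edgeR, 0 also at an unadjusted p under 0.05 and 0 with DESeq2), with a median log2 fold change of 1.01. Their summed level was 5030, 5650 and 5485 CPM ex vivo and 9973, 12340 and 15199 CPM after CD40L. Rrp12, a factor of ribosome export, rose from 6.96, 8.6 and 5.70 CPM to 21.3, 31.6 and 33.8 CPM, and Nhp2, a protein of the H/ACA particles that modify ribosomal RNA, by 1.94 (SE 0.12, edgeR adjusted p = 4.1e-08). Cytosolic ribosomal proteins rose for 70 of 78, from between 11.5% and 12.6% of TPM to between 14.8% and 15.9%. The exception was Rps27, which fell from 2778, 2720 and 2956 CPM to 2417, 1959 and 1982 CPM (-0.41, edgeR adjusted p = 0.0088), and such genes share reads with pseudogenes and close copies. Translation factors rose for 31 of 39. The helicase Eif4a1 rose by 1.37, and the 2 that fell were genes of inhibitors of translation, Eif4ebp2 (-0.64) and Eef2k (-0.54; -0.48 and not called with edgeR without ex vivo replicate 1, nor with the replicate number as a block; without CD40L replicate 1 the 2 became 4). The E-box CACGTG, read by MYC, was in a promoter window of 14 of 56 nucleolar genes (25.0%), of 6 of 22 sterol genes (27.3%) and of 11.9% of all tested genes. The share was 13.5% among genes that rose, 11.9% among genes that fell and 6.87% (9 of 131) among genes higher by at least 3 on the log2 scale. In the sterol list 4 of 17 that rose, 1 of 3 that fell and 1 of 2 not called held it. A part of MYC in these rises was not tested. Myc itself had 108, 107 and 126 CPM against 143, 266 and 318 CPM (1.09, SE 0.23, edgeR adjusted p = 0.0014).

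Of 23 genes of aminoacyl-tRNA synthetases and their partners 21 rose, led by Iars (58.9, 67.2 and 64.2 CPM to 132, 261 and 273 CPM). Of 22 serine, one-carbon and ATF4-related genes 14 rose, among them Asns, which makes asparagine (1.46 ± 0.603 to 20.2 ± 4.94 CPM, SD, n = 3 each; log2 fold change 3.78, SE 0.41), and the mitochondrial folate enzymes Mthfd2 (2.39) and Shmt2 (1.95). In a joint list of the MYC family and amino acid transporters 6 of 22 were higher and 7 lower, and their median of 0.01 was -0.18 on the log2(TPM + 1) scale and -0.03 with upper-quartile scaling. Slc7a5, the large neutral amino acid carrier, rose from 5.61, 3.65 and 2.92 CPM to 16.9, 14.4 and 16.4 CPM, while the glutamine carrier Slc1a5 fell by 0.38. Of 31 nucleotide synthesis genes 24 rose. Impdh2, the step that commits purines to GTP, rose from 112, 113 and 105 CPM to 351, 430 and 513 CPM (1.97, SE 0.14, edgeR adjusted p = 8.6e-08). In the polyamine list Eif5a rose by 1.67 and the spermidine synthase Srm from 3.16, 4.58 and 3.52 CPM to 10.9, 9.28 and 11.6 CPM, and Sat1, which breaks polyamines down, fell by 1.38.

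In the sterol list 24 of 30 tested members rose and 4 fell, with a median of 1.44. Hmgcs1, an early enzyme of the pathway, had 49.1, 85.0 and 69.7 CPM ex vivo and 237, 448 and 464 CPM after CD40L (2.49, SE 0.25, edgeR adjusted p = 2.4e-06). Sqle, which commits squalene to sterols, had 13.9, 29.0 and 26.2 CPM against 157, 259 and 266 CPM (3.30, SE 0.27, edgeR adjusted p = 3.4e-07), and Idi1 had 43.4, 62.4 and 53.9 CPM against 374, 504 and 673 CPM (3.28, SE 0.22, edgeR adjusted p = 6.9e-08). In all of these genes the highest ex vivo library was below the lowest CD40L library, and ex vivo replicate 1 was the lowest of the 6.

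The 4 members that fell export sterol or restrain its uptake or synthesis. Abcg1, a cholesterol exporter, fell from 269, 229 and 194 CPM to 14.1, 11.7 and 9.05 CPM (-4.31, SE 0.18, edgeR adjusted p = 9.6e-10). Abca1, another exporter, fell from 93.1, 102 and 95.6 CPM to 35.3, 11.0 and 3.30 CPM (-2.56, SE 0.53, edgeR adjusted p = 0.0012; -3.78 without CD40L replicate 1). Mylip, a ubiquitin ligase that restrains sterol uptake, fell from 106, 102 and 101 CPM to 5.20, 4.44 and 4.98 CPM (-4.40, SE 0.16, edgeR adjusted p = 3.2e-10). These 3 are known as targets of the sterol sensor LXR. The last was Insig2 (-0.64, SE 0.15), which holds back the SREBP factors that drive sterol synthesis. In Sh3gl1-/- cells Abcg1, Abca1 and Mylip had log2 fold changes of -5.54, -2.94 and -4.23, and Sqle had 3.79. The sterol element TCACNCCAC was in a promoter window of 1 of 22 sterol genes with a promoter, Hmgcs1, 137 bases before its start, and of 1.33% of all tested genes. In the fatty acid list 13 of 23 tested members rose, Fasn by 1.42 (SE 0.13) among them, while Cpt1a, which admits fatty acids to mitochondria for oxidation, fell from 43.6, 41.5 and 40.2 CPM to 8.44, 7.19 and 4.56 CPM (-2.64, SE 0.20, edgeR adjusted p = 2.4e-07).

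**Figure D5:**
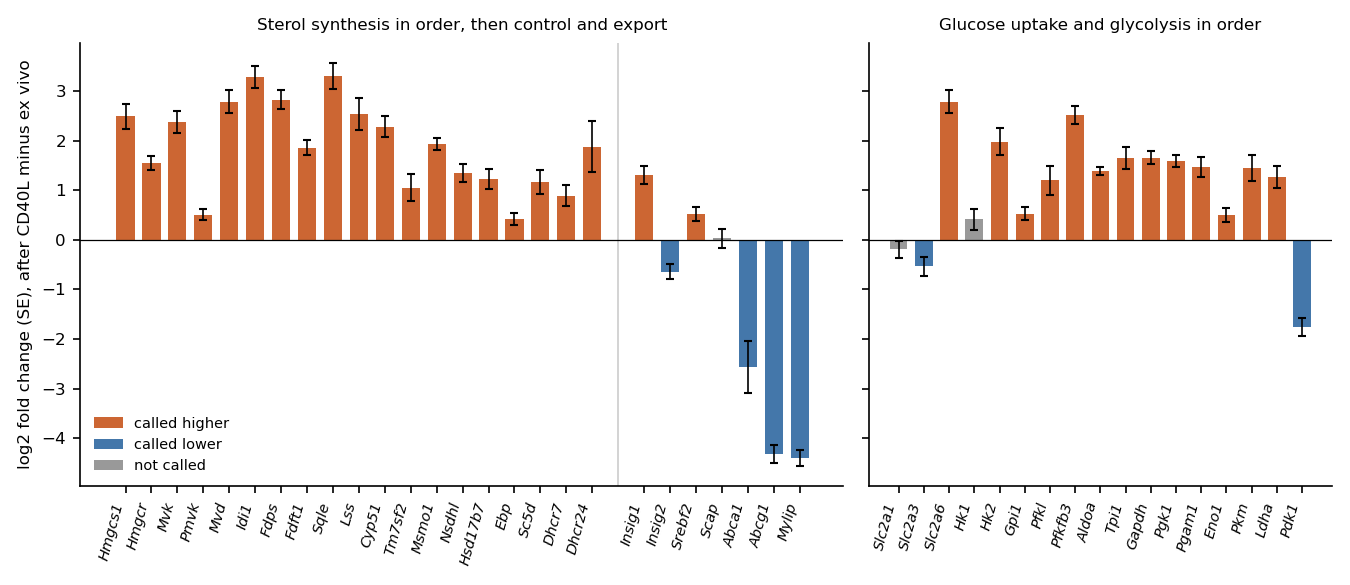
Log2 fold change (CD40L against ex vivo) with SE for genes of sterol synthesis in pathway order, followed by control and export, and for glycolysis in pathway order. Synthesis enzymes lie above 0, Abca1, Abcg1 and Mylip lie below, and Pdk1 is lower among mostly higher glycolytic genes.

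Genes of glycolysis and the pentose phosphate pathway rose for 21 of 33 tested members and fell for 3 (1 without CD40L replicate 1, where Ldhb and Slc2a3 were not called). Pfkfb3, which makes the activator of phosphofructokinase, rose from 24.4, 20.2 and 21.3 CPM to 117, 115 and 143 CPM (2.51, SE 0.18, edgeR adjusted p = 1.1e-07). Hk2 had 4.06, 6.56 and 5.32 CPM against 13.8, 18.7 and 30.4 CPM, and Aldoa 485, 566 and 496 CPM against 1293, 1383 and 1344 CPM. Among glucose transporters Slc2a6 rose from 13.3, 15.8 and 8.02 CPM to 77.6, 90.6 and 87.5 CPM, whereas Slc2a1 (GLUT1) was not called (44.8 ± 1.03 and 39.2 ± 6.51 CPM, SD, n = 3 each). Pdk1, which keeps pyruvate out of the citrate cycle, fell by 1.75 (SE 0.18). In the list of hypoxia genes, Pdk1 included, 8 of 17 tested members fell and 4 rose, Adm (4.54 ± 1.85 to 129 ± 7.06 CPM, SD, n = 3 each) with the largest rise of them.

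Mitochondrial genes moved in opposite directions by the genome that encodes them. Of 77 nuclear genes of the respiratory chain and ATP synthase 68 rose, with a median of 0.72, and their summed level went from 10135, 9634 and 9840 CPM to 15995, 15741 and 16712 CPM. Atp5g1, a subunit of the ATP synthase ring, rose from 146, 133 and 150 CPM to 368, 362 and 416 CPM (1.42, SE 0.10, edgeR adjusted p = 1.5e-07). The 13 protein genes of the mitochondrial genome instead had a median of -0.65: 7 fell and 1 rose. Their summed level was 17311, 16488 and 20103 CPM ex vivo and 14335, 9929 and 11444 CPM after CD40L, and mt-Cytb fell from 5422, 4972 and 6520 CPM to 3497, 2395 and 2671 CPM (-0.98, SE 0.14, edgeR adjusted p = 5.2e-05). The member that rose, mt-Co3, overlapped between the groups (424, 319 and 328 CPM against 857, 409 and 691 CPM) and was not called without CD40L replicate 1 (0.61, edgeR adjusted p = 0.05). Mitochondrial ribosomal proteins rose for 67 of 78, import factors and chaperones for 24 of 29, with the chaperonin pair Hspd1 and Hspe1 at 1.84 and 1.83, and citrate cycle enzymes for 14 of 20. In these 3 lists and that of the respiratory chain 0 members fell, with edgeR at an adjusted or an unadjusted p under 0.05 or with DESeq2, while limma on log2(TPM + 1) called 1 lower in the mitochondrial ribosome and 1 in the citrate cycle.

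Genes of protein folding and turnover rose as well. Cytosolic chaperones rose for 16 of 20 tested members, with a median of 1.34 and from between 0.286% and 0.334% of TPM to between 0.633% and 1.11%. Hspa8, the constitutive HSP70, had 750, 888 and 1293 CPM against 2499, 3563 and 6962 CPM, and Hsp90ab1 rose from 1177 ± 28.9 to 4258 ± 575 CPM (SD, n = 3 each). The stress-induced Hspa1a and Hspa1b were among the 4 members too low to test. Proteasome genes rose for 40 of 46, led by Psme2, a subunit of the PA28 activator (300, 301 and 323 CPM to 1374, 1238 and 1373 CPM; 2.11, SE 0.10, edgeR adjusted p = 1.7e-09). The 2 that fell, Psmb8 (-0.40; not called without ex vivo replicate 1) and Psmb9 (-0.41), are immunoproteasome subunits. In the endoplasmic reticulum 20 of 34 genes rose, with the chaperone Hspa5 (BiP) going from 743, 786 and 791 CPM to 1931, 2814 and 2595 CPM, and 2 fell, of which 1 was the stress sensor Eif2ak3 (PERK, -1.31).

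Among iron genes 7 of 27 tested rose and 4 fell, and their median of 0.09 was -0.05 on the log2(TPM + 1) scale, where 4 rose. Tfrc, the transferrin receptor, had 36.3, 38.5 and 44.5 CPM against 55.8, 67.1 and 124 CPM (1.05, SE 0.30, edgeR adjusted p = 0.0096), a call that was lost without CD40L replicate 3 (0.64, edgeR adjusted p = 0.065). Ftl1, the ferritin light chain, rose from 2382, 2357 and 2370 CPM to 5251, 4304 and 3752 CPM, while the heavy chain Fth1 overlapped between the groups (304, 126 and 118 CPM against 123, 233 and 121 CPM). Slc40a1 (ferroportin), an iron exporter that macrophages also express, went from 7.02, 9.84 and 7.20 CPM to 0.0675, 0 and 0 CPM. The part of macrophages in it was not tested. Autophagy genes fell for 10 of 30 tested and rose for 4.

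DNA replication genes rose for 39 of 48 members and mitosis genes for 33 of 43. The size of these rises depended on CD40L replicate 3: without it 30 and 23 rose. The summed level of replication genes was 1944, 2155 and 2044 CPM ex vivo and 2930, 3505 and 5978 CPM after CD40L, and that of mitosis genes 536, 523 and 523 CPM against 816, 897 and 1637 CPM. Cdc6, which loads the replicative helicase, had 1.61, 3.22 and 3.15 CPM against 18.8, 20.8 and 83.4 CPM (3.95, SE 0.62, edgeR adjusted p = 1.3e-04; 2.91 without CD40L replicate 3). Rrm2, the regulated subunit of ribonucleotide reductase, had 14.9, 16.6 and 11.7 CPM against 64.9, 64.9 and 186 CPM (2.87 and 2.18), and Top2a 15, 18 and 14.5 CPM against 66.8, 83.8 and 208 CPM (2.92 and 2.26). Cdk1, the kinase of mitotic entry, had 3.29, 3.09 and 2.92 CPM against 10.3, 9.80 and 34.2 CPM (2.54 and 1.70). In each of these genes the other 2 CD40L libraries still lay above the ex vivo libraries.

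Regulators of the start of the cycle were divided, with 11 of 26 tested higher (7 without CD40L replicate 3, 6 on the log2(TPM + 1) scale) and 7 lower. Ccnd2 (cyclin D2) rose from 137, 180 and 160 CPM to 399, 465 and 887 CPM (1.88, SE 0.25, edgeR adjusted p = 3.2e-05), and Ccnd3 fell from 35.1, 31.3 and 32.5 CPM to 19, 13.4 and 17.7 CPM. Cdkn1a (p21), an inhibitor of the cycle and a p53 target, rose from 1.55, 1.05 and 0.900 CPM to 13.8, 12.2 and 3.84 CPM (3.07, SE 0.43, edgeR adjusted p = 4.9e-05), and was lowest in the CD40L library that was highest for division genes. Of 16 tested p53 targets 8 rose and 4 fell, Trp53inp1 by 2.07.

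The next rises were ranked among called protein-coding genes without overlap between the groups and with a mean of at least 10 CPM after CD40L. The largest after that of Ccl22 included 7 genes at 1.67 CPM or lower in every ex vivo library. Adgrg1 (GPR56), an adhesion receptor, had 0.516, 0.928 and 0 CPM against 45.7, 40 and 54.3 CPM (6.50, SE 0.43, edgeR adjusted p = 6.1e-08; 7.39 without ex vivo replicate 2). The tetraspanin Tspan33, a protein of activated B cells, had 0.387, 0.0619 and 0 CPM against 13.2, 6.34 and 20.2 CPM (6.35, and 8.30 without ex vivo replicate 1). Gm49339, a predicted gene, had 1.22, 1.67 and 0 CPM against 63.3, 48.2 and 71.1 CPM. Its span (chromosome 10 from 51480612 to 51496613) covers that of Lilrb4a (51490956 to 51496611) on the same strand. Reads may be shared between them, so their rises are not separate measurements. Basp1 rose by 5.91, Ankrd33b by 5.65, the kinase Dapk2 by 5.20 (33.2, 23.3 and 5.51 CPM after CD40L), and Ifnlr1, the receptor chain for lambda interferons, by 5.20 (0.445 ± 0.325 to 17.2 ± 8.87 CPM, SD, n = 3 each). Absence of overlap was thus a condition of the choice and not a result. In Sh3gl1-/- cells the log2 fold changes of Adgrg1, Tspan33, Gm49339, Basp1, Ankrd33b, Dapk2 and Ifnlr1 were 6.25, 4.50, 3.75, 4.33, 5.58, 5.21 and 4.07.

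The deepest falls were of genes that reached or neared 0. Trf (transferrin) had 12, 11.1 and 7.27 CPM ex vivo and 0 counts in all CD40L libraries, at least 50-fold lower by the floor of 3 counts per library. Pde2a, a cyclic nucleotide phosphodiesterase, had 33.1, 6.06 and 20.2 CPM against 0, 0.131 and 0 CPM. Ifit1bl1, of the IFIT family, had 62.8, 58.7 and 67.0 CPM against 0.270, 0 and 0.240 CPM, and the calcium channel gene Cacna1i 36.0, 29.5 and 23.5 CPM against 0.270, 0 and 0 CPM. Rapgef4 (EPAC2), an exchange factor that responds to cyclic AMP, fell from 123, 136 and 163 CPM to 2.77, 2.09 and 2.76 CPM (-5.79, SE 0.21, edgeR adjusted p = 3.2e-10), and Fcgrt, the neonatal Fc receptor, by 5.82 (SE 0.32). Macrophages are also known to express Trf, Fcgrt and Wfdc17 (12.7 ± 1.48 to 0.0843 ± 0.0309 CPM, SD, n = 3 each), and their part in these falls was not tested.

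Changes in TPM were ranked among protein-coding genes called on counts, with immunoglobulin segments left out. The largest gains were of Actb (12591 to 21622 TPM, means of 3), Rps19 (6184 to 9826), Ppia (3283 to 6859) and Ly6d (4441 to 7179). The largest losses were of Cd74 (55010 to 40666), mt-Atp8 (11206 to 6345), Rps27 (13338 to 8916) and mt-Cytb (6426 to 2889). Being called was a condition of this ranking, and the changes on counts had the same direction. Long noncoding RNAs fell more often than they rose, with 142 of 433 tested lincRNAs lower and 46 higher. For antisense genes (119 lower and 37 higher of 488) reads of the gene on the other strand cannot be told apart, since the sources used here do not state whether counting used strand.

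The other mice of the study gave a second measurement of the same culture, in cells that lack Sh3gl1. Of the 3414 genes higher in WT cells 2470 were also called higher in Sh3gl1-/- cells, and of the 3712 lower genes 2679 were also called lower. The share of all tested genes called in Sh3gl1-/- cells is not given here, so these counts cannot be read against a base rate. Both contrasts also came from the same fit, with 1 estimate of the spread. Of 352 named genes called in WT cells 6 had a log2 fold change of the opposite sign in Sh3gl1-/- cells: Rel, Tnfrsf13b (-0.62 in WT and 0.15 in Sh3gl1-/-), Mxd3, Paox, Gbp3 and H2-D1. The WT calls of Rel, Mxd3, Paox and H2-D1 were fragile. Mxd3 was not called without CD40L replicate 3 (1.23, edgeR adjusted p = 0.09). Paox was not called without ex vivo replicate 2 (-0.84, edgeR adjusted p = 0.18), nor H2-D1 without ex vivo replicate 1 (-0.30, edgeR adjusted p = 0.31). No difference between the genotypes in these or other genes passed edgeR's interaction test (0 genes at an adjusted p under 0.05, 1278 at an unadjusted p under 0.05).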

How the data were processed

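RNA-seq libraries of poly-A RNA from 3 mice per group were analysed, with groups and replicate numbers taken from the labels. The authors deposited, per gene, expected counts (RSEM estimates, not normalized), TPM values and FPKM values (both scaled by the authors to transcript length and depth). The submitters' processing notes name cutadapt 1.9.1, STAR 2.5.2a, RSEM 1.3.0 and GRCm38, whereas the methods name TopHat and Cufflinks. The labels name a stranded KAPA kit and the methods SMART-Seq HT with Nextera XT. FPKM was not used. All 54 value columns matched a library by name. Some genes of the lists are not reported here.

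Expected counts were rounded and tested with R 4.3.3 and edgeR 4.0.16 (TMM, filterByExpr by group, glmQLFit, glmQLFTest, 1 coefficient per group) on the 12 follicular libraries, which share 1 estimate of the spread (biological coefficient of variation 21.8%). The contrast was CD40L minus ex vivo in WT cells, with Benjamini-Hochberg adjustment over 14460 genes. Genes were named where they were among the 12 largest called log2 fold changes in a direction without overlap and with at least 10 CPM, among the 8 largest gains or losses of TPM, preselected members or the 3 largest changes of a list, or 1 of the 3 response markers. Genes outside this rule (Hsp90ab1, Il9r, Lyz2, Adgre1, Zbtb46, Jchain, Insig2, Ms4a1, Rgs13, Nuggc, Nfkbid, Cyld, Otulin) were named after their values were seen. So were the markers Itgax, Clec9a, Flt3 and Xcr1. Members and lists were chosen with earlier results of these data known. Symbols came from GENCODE M21 (51719 of 51912 identifiers). The fit was also run on simulated counts with a dispersion of 0.0475. There it recovered 57 of 96 genes given a log2 fold change of size 1, and 104 of 104 given size 2. Genes not called here may therefore include true shifts of the smaller size.

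Replicates of a group differed by more than sampling noise (chi-square over its degrees of freedom, 11.7 to 52.7 for the pairs of libraries). The p-values of the main test rest on the spread between libraries of a group, estimated over the 12 follicular libraries, and use no pairing. Same-numbered WT libraries of the 2 groups deviated together from their group means (r = 0.158, 0.149 and 0.243 over 14460 genes, against at most 0.0182 for other numbers), so the numbers were taken as pairs in an alternative with the replicate number as a block. Other alternatives were median-ratio (RLE) and upper-quartile scaling, other filters, DESeq2 1.42.0, limma 3.58.1 (voom, log2(TPM + 1), log2(TPM + 0.1)), the 6 WT libraries alone, and each WT library left out.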

Additional observations from a re-analysis of the deposited data

How the results depend on the processing

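The count of changed genes, 7126, stayed within 1.5 times under every alternative: between 5507 (genes with a mean of at least 100 counts) and 7359 (DESeq2) with all libraries, and between 5981 (without CD40L replicate 3) and 7296 when 1 library was left out. With the replicate number as a block, which pairs same-numbered libraries, it was 6937 (3329 higher, 3608 lower) for 12 libraries and 6910 (3468 higher, 3442 lower) for the 6 WT libraries. The 12-library block ended the calls of 9 named genes (Bbc3, Bnip3, Crlf2, Eef2k, Impdh1, Nfkb1, Paox, Pax5, Tnfrsf22), added 4 (Cxcr4, Fcmr, Il6ra, Tnfrsf8) and changed no other call among the named genes. Over all alternatives 6285 of 6606 comparisons of named genes stayed on their side of the threshold, 257 lost the call, 64 gained it, and 0 called values turned direction. Higher genes were 47.9% of calls with TMM and 35.2% with limma on log2(TPM + 1) or log2(TPM + 0.1). Those scales gave 2504 and 2492 higher and 4602 and 4581 lower. The share was 46.0% with upper-quartile scaling, 50.5% with median-ratio scaling and with DESeq2, and 50.4% with the 6 WT libraries alone. Of 1496 counts of list members 1412 stayed within 1.5 times. The others included, for genes with a mean of at least 100 counts, 5 T-cell ligands higher (9 otherwise), 7 immediate early genes lower (13) and 4 p53 targets higher (8), for DESeq2 7 class I genes higher (4), and for the 6 WT libraries alone 5 class I genes lower (8). The causes were not tested, except that the stricter filter tests fewer genes.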
